A study of Mus musculus with 12 samples.

Results

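The D and E cyclins and the CDK inhibitors of the G1 phase were followed in megakaryocytes (MKs) that had been sorted from BM and spleen on day 5 after saline or sepsis. The 10 genes, which were Ccnd1, Ccnd2, Ccnd3, Ccne1, Ccne2, Cdkn1a, Cdkn1b, Cdkn1c, Cdkn2c and Cdkn2d, were taken by symbol from the 55536 genes of the count table. No cutoff on a measured value picked them, but earlier results of these data were known when they were chosen. In both tissues the CDK inhibitor Cdkn2d and the D cyclin Ccnd2 had the highest mean levels of the 10 genes per kilobase of annotated exon. None of the 10 genes passed the test between tissues or between treatments in edgeR. The differences nearest to the threshold were a higher Ccne2 and Cdkn2d in BM and a higher Cdkn1b in spleen.

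In G1, D cyclins bind CDK4 and CDK6 and start the phosphorylation of the retinoblastoma protein, which frees E2F factors to switch on the genes of S phase. E cyclins then bind CDK2 and complete that step. Inhibitors of the INK4 family, such as p18 (Cdkn2c) and p19 (Cdkn2d), bind CDK4 and CDK6, whereas the CIP/KIP family of p21 (Cdkn1a), p27 (Cdkn1b) and p57 (Cdkn1c) binds cyclin-CDK complexes. MKs repeat S phase without dividing, a cycle called endomitosis that makes them polyploid, and D cyclins, E cyclins and CDK inhibitors are known regulators of it.

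The mice were Pf4-TdTomato animals on the C57BL/6 strain, aged 8 to 12 weeks, in which Pf4, a gene of the MK lineage, drives the red reporter. The reporter was carried by the control animals as well. They received saline or a nonlethal dose of cecal slurry (CS), a suspension of gut content that causes polymicrobial sepsis. Cells that were CD45+, Lin-, Pf4-tomato+, CD41+ and CD42b+ were sorted on day 5, and 300 cells were pooled for each library. Plasma cells (CD138+) were gated out as well. With 2 tissues and 2 treatments there were 4 groups, each of 3 independent replicates.

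Libraries held between 7756762 and 27386184 counts. The 15 MK and platelet markers summed to 12040 to 49120 counts per 1000000 (CPM) in the 6 BM libraries and to 1244 to 3650 CPM in the 6 spleen libraries, in which 13 to 14 of the 15 were detected. Averaged over treatments, edgeR called 8 of the 15 as higher in BM, against 2.07% of all genes. The 12 B cell markers summed to 97.8 to 644 CPM in BM and to 5818 to 33250 CPM in spleen. All 12 were called as higher in spleen averaged over treatments, against 2.68% of all genes. The 16 proliferation markers summed to 2198 to 2975 CPM in BM and to 145 to 1431 CPM in spleen. Of these, edgeR called 1 as higher in BM after saline, 0 after sepsis and 4 averaged over treatments. The shares of all genes were 0.523%, 0.597% and 2.07%. The 8 plasma cell markers summed to 1485 to 4697 CPM in BM and to 7761 to 80830 CPM in spleen. Of these, edgeR called 6 as higher in spleen averaged over treatments, against 2.68% of all genes. The 7 basophil and mast cell markers summed to 2748 to 29290 CPM in BM and to 42.8 to 5051 CPM in spleen. Of these, edgeR called 3 as higher in BM averaged over treatments, against 2.07% of all genes, and 4 after sepsis, against 0.597%. It called 2 as lower with sepsis in spleen, where 0.158% of all genes were called in either direction. The 9 neutrophil markers summed to 113 to 341 CPM in BM after saline and to 2660 to 19220 CPM in BM after sepsis. In spleen they summed to 21000, 436 and 334 CPM after saline and to 10380, 66.3 and 269.9 CPM after sepsis. The top of each splenic range thus rested on 1 library. Between tissues, edgeR called 3 of the 9 as higher in BM averaged over treatments, against 2.07% of all genes. After sepsis it called 1 as higher in BM, against 0.597%. With sepsis in BM edgeR called 0 of the 9, and 0.0% of all genes. The 8 T cell markers summed to 13.7 to 140 CPM in BM and to 132 to 2047 CPM in spleen. Of these, edgeR called 3 as higher in spleen averaged over treatments, against 2.68% of all genes. Marker sums thus differed with tissue and, for some lists, with sepsis, as did the groups compared below. Their part in the values of the cyclins, inhibitors and other G1/S genes was not tested. In pooled cells, fewer cells of a type and less RNA per cell cannot be told apart.

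To order the genes, each level was divided by the length of the gene's exons in kilobases (kb), because a longer transcript yields more reads. Cdkn2d, which encodes the INK4 inhibitor p19, had the highest median over the 12 libraries, 55.0 CPM per kb with a range of 25.6 to 144. Ccnd2 followed with a median of 21.2 CPM per kb and a range of 6.41 to 103. Cdkn2d lay above Ccnd2 in 11 of the 12 libraries, and Ccnd2 lay above the gene below it in the order, Ccne1, in 11 of 12.

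Ccne1, Cdkn1b, Cdkn2c, Ccnd3 and Ccne2 formed a middle group with medians from 6.92 to 2.78 CPM per kb. Neighbors within this group changed places from library to library, each being the higher of the pair in 5 to 7 of 12, so that their order was not resolved. Ccnd1 at 0.536 CPM per kb, Cdkn1a at 0.336 and Cdkn1c at 0.0 were lowest. The order depends on the length that is used, most of all for Ccnd3, whose annotated exons cover 8775 bases and whose principal transcript covers 2113 bases. With the principal transcript, Ccnd3 had the third rank at a median of 16.0 CPM per kb, and Cdkn2d and Ccnd2 were still first and second. Ccnd2 then lay above Ccnd3 in 8 of the 12 libraries.

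**Figure D1:**
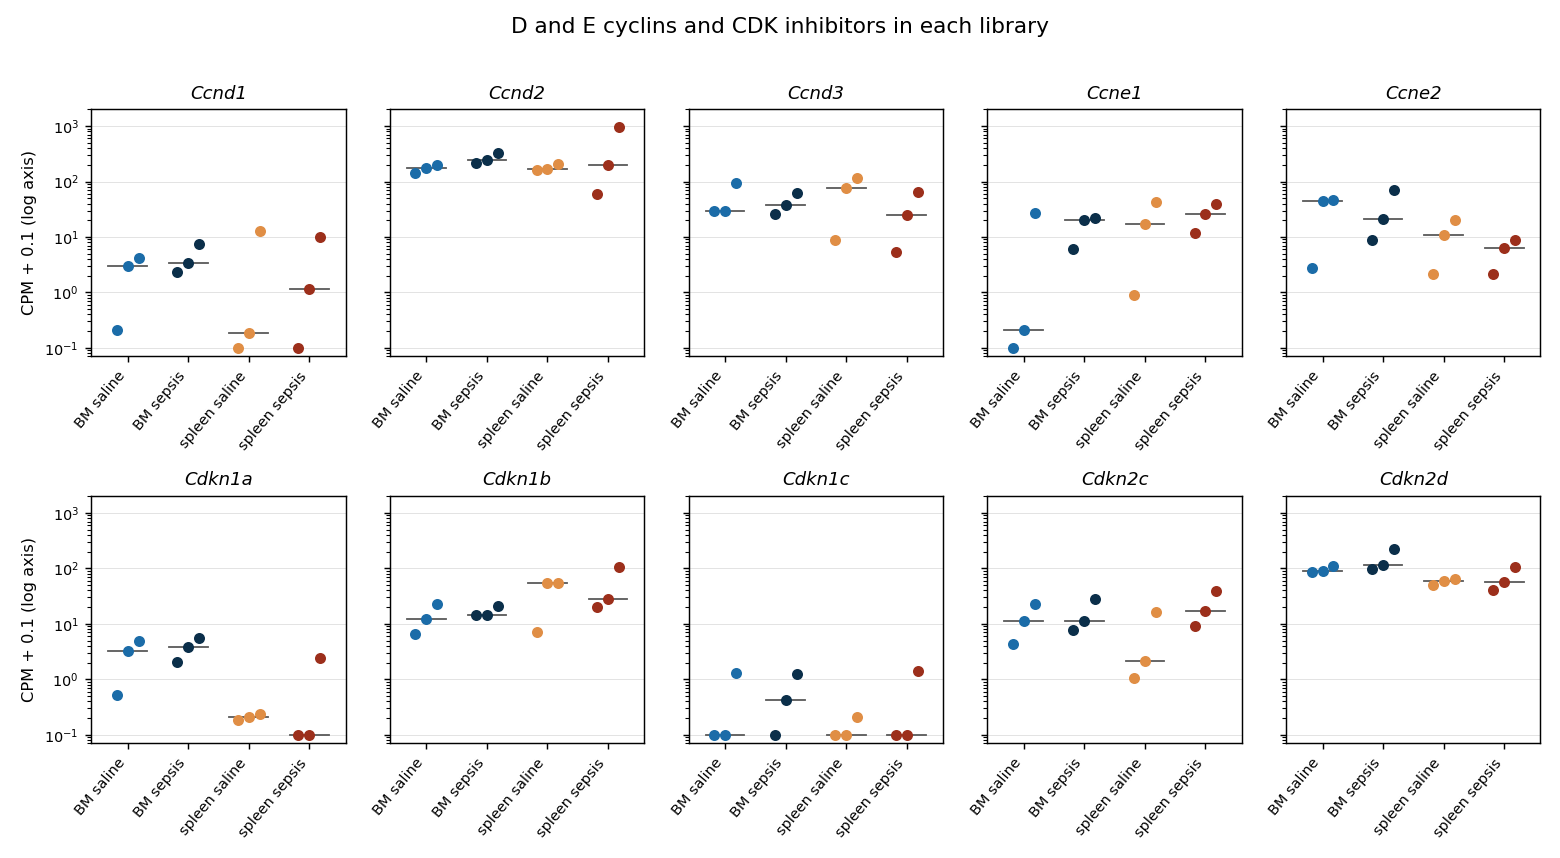
CPM plus 0.1 on a log axis for each of the 10 genes, with 1 point per library, a line at the median and 3 libraries in each group. Cdkn2d stayed between 40.3 and 226 CPM and Ccnd2 between 60.3 and 968 CPM, whereas Cdkn1c was at or under 1.34 CPM in all 12 libraries.

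Ccnd2, at chromosome 6 (127125162-127152193, GRCm38), encodes cyclin D2. It measured 199, 174 and 143 CPM in BM after saline and 323, 246 and 220.0 CPM in BM after sepsis. Every BM sepsis library was above every BM saline library. In this comparison, libraries did not overlap, in either direction, for 8.94% of the 20263 genes tested and for 1 of the 10 cyclins and inhibitors. The log2 fold change of Ccnd2 with sepsis in BM was 0.61 ± 0.68 (SE, n = 3 and 3), with an adjusted p of 1.0 in edgeR.

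In spleen, Ccnd2 measured 203, 168 and 160.2 CPM after saline and 199.6, 60.3 and 968 CPM after sepsis. The septic libraries lay both below and above the saline ones. The log2 fold change of Ccnd2 with sepsis in spleen was 1.21 ± 0.69 (adjusted p = 0.435 in edgeR), and it rested on spleen sepsis replicate 3, without which it was -0.40. The same library set the sign between tissues after sepsis, where BM over spleen was -0.64 ± 0.68 (adjusted p = 0.756) with it and 1.03 without it. Averaged over treatments, BM over spleen was -0.34 ± 0.48 with an adjusted p of 0.735 in edgeR, and 0.51 without that library.

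Spleen sepsis replicate 3 also had the lowest share of immunoglobulin and T cell receptor segment reads of the 6 spleen libraries, 13.0% against 23.5% to 30.1% in the others. Its B cell markers summed to 5818 CPM, against 26320 and 33250 CPM in the other septic spleen libraries, and its plasma cell markers to 7761 CPM, against 30900 and 35670 CPM. Whether these values bear on its Ccnd2 level was not tested.

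Ccnd3 encodes cyclin D3, and its gene lies at chromosome 17 (47505051-47599691). It measured 29.8, 92.5 and 29.7 CPM in BM after saline, 63.2, 26.2 and 37.9 CPM in BM after sepsis, 116, 75.7 and 8.69 CPM in spleen after saline and 24.9, 65.7 and 5.24 CPM in spleen after sepsis. All 4 groups overlapped. The highest splenic library exceeded the lowest by 13.3 times after saline and by 12.5 times after sepsis, while the spread within BM was 3.11 and 2.42 times. Averaged over treatments, the log2 fold change of Ccnd3 between BM and spleen was 0.01 ± 0.65, with a 95% confidence interval (CI) from -1.34 to 1.36.

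Ccnd1, which encodes cyclin D1, was scarce. Its counts gave 2.84, 4.08 and 0.108 CPM in BM after saline, 3.26, 2.21 and 7.40 CPM in BM after sepsis, 0, 0.0825 and 12.7 CPM in spleen after saline and 0, 10.1 and 1.07 CPM in spleen after sepsis. The gene was near the floor in some libraries of 3 of the groups and well above it in others of the same groups. Ccnd1 lies at chromosome 7 (144929931-144939925), where 23.4% of its annotated exons overlap those of the neighboring gene LTO1, and the library kit does not mark the strand of a read. A log2 fold change between BM and spleen of -0.32 ± 1.69 (adjusted p = 0.954 in edgeR) therefore leaves the direction undetermined.

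Of the summed CPM per kb of the 3 D cyclins, Ccnd2 made up a mean of 76.3% ± 15.9 (SD, n = 12 libraries) and more than 50% in 11 of 12. The exception was spleen sepsis replicate 2, in which Ccnd2 held 40.0% and Ccnd3 46.7%. Ccnd3 made up a mean of 20.3% ± 14.4 and Ccnd1 a mean of 3.39% ± 4.84. With principal transcript lengths, a choice made after the data were seen, the mean share of Ccnd2 was 59.8% and that of Ccnd3 was 38.0%, and Ccnd2 exceeded 50% in 8 of 12 libraries.

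The E cyclins were less regular. Ccne1, which encodes cyclin E1 and lies at chromosome 7 (38097984-38107534), measured 0, 27.3 and 0.108 CPM in BM after saline and 6.00, 22.1 and 20.0 CPM in BM after sepsis. In spleen it measured 0.811, 42.65 and 16.8 CPM after saline and 26.4, 38.9 and 11.7 CPM after sepsis. Libraries of the same group were thus at or near 0 and above 15 CPM, except in the septic groups, where all 6 were at 6.00 CPM or above. The SD of log2 CPM of Ccne1 within groups was 2.59, and 95.2% of the 8119 genes with a mean of at least 10 CPM varied less.

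The log2 fold change of Ccne1 between BM and spleen after saline was -1.14 ± 1.59 (adjusted p = 0.860 in edgeR). It depended on BM saline replicate 2, the only BM saline library with more than 1 Ccne1 count. Without this library the gene was called as higher in spleen, with -8.25 after saline (adjusted p = 0.0419) and -4.44 averaged over treatments (adjusted p = 0.0230). The BM saline libraries that remained had 0 and 1 counts, and the size of a fold change fitted to such counts depends on the prior count. With all 12 libraries the averaged difference was -0.91 ± 1.12, with an adjusted p of 0.690 in edgeR.

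Ccne2, which encodes cyclin E2 and lies at chromosome 4 (11191351-11204779), measured 2.66, 43.8 and 46.4 CPM in BM after saline and 8.80, 20.7 and 68.8 CPM in BM after sepsis. In spleen it measured 2.03, 10.6 and 19.7 CPM after saline and 2.06, 6.27 and 8.73 CPM after sepsis. After sepsis, the lowest BM library lay just above the highest splenic one. After saline, BM replicate 1 lay within the splenic range.

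Averaged over treatments, Ccne2 was 4.06-fold higher in BM, a log2 fold change of 2.02 ± 0.83 with a 95% CI from 0.28 to 3.76. The unadjusted p was 0.0249 and the adjusted p 0.184 in edgeR, so that the difference did not pass the test. The value was 1.52 ± 1.16 after saline and 2.53 ± 1.20 after sepsis. Exons of Ints8 overlap 17.4% of the Ccne2 exons, and Ints8 itself had a median of 20.4 CPM, so that reads in the shared part cannot be assigned to one gene without strand.

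Between the E cyclins, the share of Ccne1 in their summed CPM per kb was 0.0%, 45.0% and 0.304% in BM after saline and 47.2%, 58.4% and 27.6% in BM after sepsis. In spleen it was 34.4%, 84.0% and 52.8% after saline and 94.4%, 89.1% and 63.8% after sepsis. Every septic splenic library was thus richer in Ccne1 than every BM library, while spleen saline replicates 1 and 3 fell within the BM range. The shares are a description, and no test of them was made.

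**Figure D2:**
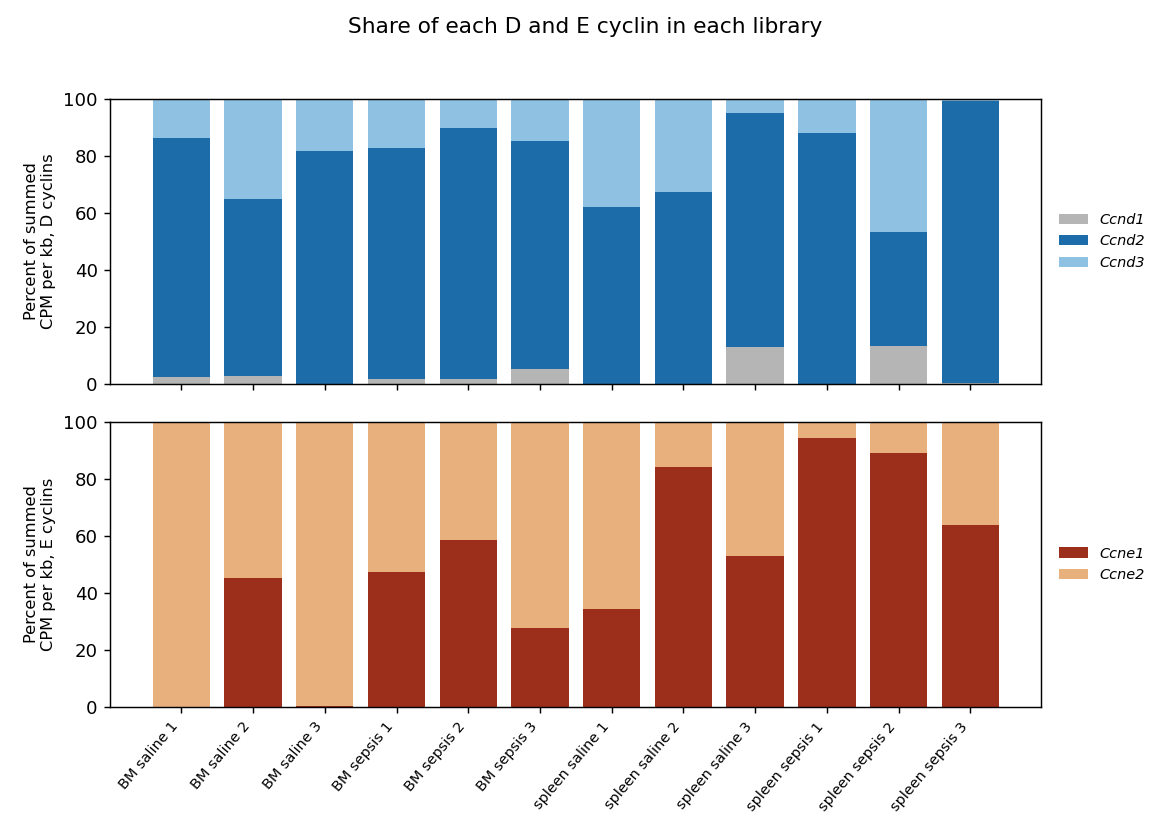
Percent of the summed CPM per kb of exon for the 3 D cyclins (upper panel) and the E cyclins Ccne1 and Ccne2 (lower panel), with 1 bar for each of the 12 libraries. Ccnd2 held 40.0% to 99.2% of the D cyclin signal, and Ccne1 held 63.8% to 94.4% of the E cyclin signal in the spleen sepsis libraries.

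Among the CIP/KIP inhibitors, Cdkn1b was the most abundant. It encodes p27, an inhibitor of cyclin E-CDK2, and lies at chromosome 6 (134920401-134925513), with no exon of another gene on it. Cdkn1b measured 22.3, 12.1 and 6.46 CPM in BM after saline and 14.6, 20.9 and 14.5 CPM in BM after sepsis, against 54.3, 6.93 and 54.1 CPM in spleen after saline and 27.9, 19.8 and 108 CPM in spleen after sepsis. Of the 6 splenic libraries, 4 lay above the highest BM library, and spleen saline replicate 2 and spleen sepsis replicate 2 lay within the BM range.

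Averaged over treatments, Cdkn1b was 2.96-fold higher in spleen, a log2 fold change of BM over spleen of -1.57 ± 0.65 with a 95% CI from -2.92 to -0.21. The unadjusted p was 0.0261 and the adjusted p 0.189 in edgeR. The difference was -1.50 ± 0.92 after saline and -1.64 ± 0.92 after sepsis. DESeq2 called it, at -1.75 with an adjusted p of 0.0390. Without spleen sepsis replicate 3 the value in edgeR was -0.99 with an adjusted p of 0.461.

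Cdkn1a, which encodes p21, a target of p53, was low in both tissues. Its counts were 5, 31 and 44 in BM after saline, 57, 23 and 157 in BM after sepsis, 1, 1 and 1 in spleen after saline and 0, 21 and 0 in spleen after sepsis. In 5 of the 6 splenic libraries Cdkn1a was thus at 0 or 1 count, a level at which it cannot be told from absence. After saline, the 80 counts of BM against the 3 counts of spleen gave a ratio of 25.0, with a 95% interval from 8.26 to 124 (exact, from the binomial distribution) that covers counting error only. The adjusted p of this difference was 0.50 in edgeR, and averaged over treatments the fitted log2 fold change was 3.40 ± 1.89 with an adjusted p of 0.332. The fitted values depended on spleen sepsis replicate 2, without which they were 6.66 averaged over treatments and 8.67 after sepsis (2.24 with it), with adjusted p values of 0.173 and 0.505 in edgeR. The septic splenic libraries that remained had 0 counts each, so that the size of 8.67 depends on the prior count.

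Cdkn1c, which encodes p57, had 0 counts in 7 of the 12 libraries and 3 counts or fewer in 8. Its highest counts were 33 in BM sepsis replicate 3, 26 in spleen sepsis replicate 1 and 12 in BM saline replicate 2. No difference in Cdkn1c between groups was detectable at this depth, where 3 counts correspond to between 0.105 and 0.405 CPM.

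Cdkn2d was the steadiest of the 10 genes. It lies at chromosome 9 (21288410-21291407), and no other gene overlaps its exons. It measured 88.6, 108 and 84.4 CPM in BM after saline and 226, 113 and 98.3 CPM in BM after sepsis, against 59.5, 63.6 and 49.4 CPM in spleen after saline and 40.3, 56.9 and 105 CPM in spleen after sepsis. Its SD of log2 CPM within groups was 0.49, and 7.52% of the 8119 genes with a mean of at least 10 CPM varied less.

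After saline, the 3 BM libraries lay above the 3 splenic ones, and after sepsis spleen replicate 3 lay above the lowest BM library. Averaged over treatments, Cdkn2d was 1.88-fold higher in BM, a log2 fold change of 0.91 ± 0.40 with a 95% CI from 0.06 to 1.76. The unadjusted p was 0.0364 and the adjusted p 0.223 in edgeR. The value was 0.70 ± 0.57 after saline and 1.11 ± 0.57 after sepsis. With sepsis in BM it was 0.64 ± 0.57, and the highest of the BM libraries, BM sepsis replicate 1, stood at 226 CPM.

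Cdkn2c, which encodes p18 and lies at chromosome 4 (109660876-109667189), measured 11.1, 4.27 and 22.8 CPM in BM after saline and 11.3, 27.6 and 7.75 CPM in BM after sepsis. In spleen it measured 2.03, 16.6 and 0.966 CPM after saline and 39.1, 16.8 and 9.12 CPM after sepsis. In both tissues the septic and saline libraries overlapped, in spleen through saline replicate 2. The log2 fold change of Cdkn2c with sepsis in spleen was 1.73 ± 1.23 (adjusted p = 0.593 in edgeR). It was 3.86 without spleen saline replicate 2 and 1.09 without spleen sepsis replicate 1. Averaged over treatments, the log2 fold change between BM and spleen was 0.24 ± 0.85.

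Over the 7 comparisons, edgeR called 0 of the 10 genes at an adjusted p under 0.05, all 10 of which had passed the filter on low counts. Of the 20263 genes tested, 1.25% were called between tissues after saline, 1.78% between tissues after sepsis and 4.75% between tissues averaged over treatments. With sepsis, 0.0% were called in BM, 0.158% in spleen and 0.0691% averaged over tissues, and 0.0% were called in the tissue by sepsis interaction. With these shares, fewer than 1 call among 10 genes would match the background in each comparison. At an unadjusted p under 0.05, edgeR gave 3 of the 10 between tissues averaged over treatments (Ccne2, Cdkn1b and Cdkn2d), against 19.3% of all genes, 1 between tissues after sepsis (Ccne2), against 12.9%, and 0 in the other 5 comparisons. DESeq2 called Cdkn1b between tissues averaged over treatments and none of the 10 in the other comparisons, and limma-voom called none. In that comparison DESeq2 called 12.9% of all genes, so that 1 of 10 was near its background. Its shares were 6.47% and 7.26% between tissues after saline and after sepsis, 1.02%, 4.87% and 3.34% with sepsis in BM, in spleen and averaged over tissues, and 2.44% in the interaction. Those of limma-voom were 0.913%, 3.57% and 7.49% between tissues after saline, after sepsis and averaged over treatments, 0.00494% with sepsis averaged over tissues and 0.0% in the other 3 comparisons.

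Libraries did not overlap between BM and spleen after saline for 2 of the 10 genes (Cdkn1a and Cdkn2d, both higher in BM), against 18.3% of all genes. After sepsis this held for 1 of the 10 (Ccne2), against 18.0%. With sepsis in spleen it held for 0 of the 10, against 9.46%, and with all 6 BM libraries set against all 6 splenic ones for 0 of the 10, against 4.43%. The median log2 fold change of the 10 genes between BM and spleen averaged over treatments was 0.12, with 6 above 0 and 4 below, and that of all genes tested was -0.13. With sepsis the median was 0.38 in BM and 0.39 in spleen, and that of all genes was -0.08 in both. Only the intervals of Ccne2, Cdkn1b and Cdkn2d between tissues lay on 1 side of 0 in the plot of fold changes, and the interval of Ccnd2 with sepsis in spleen reached from -0.23 to 2.65.

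**Figure D3:**
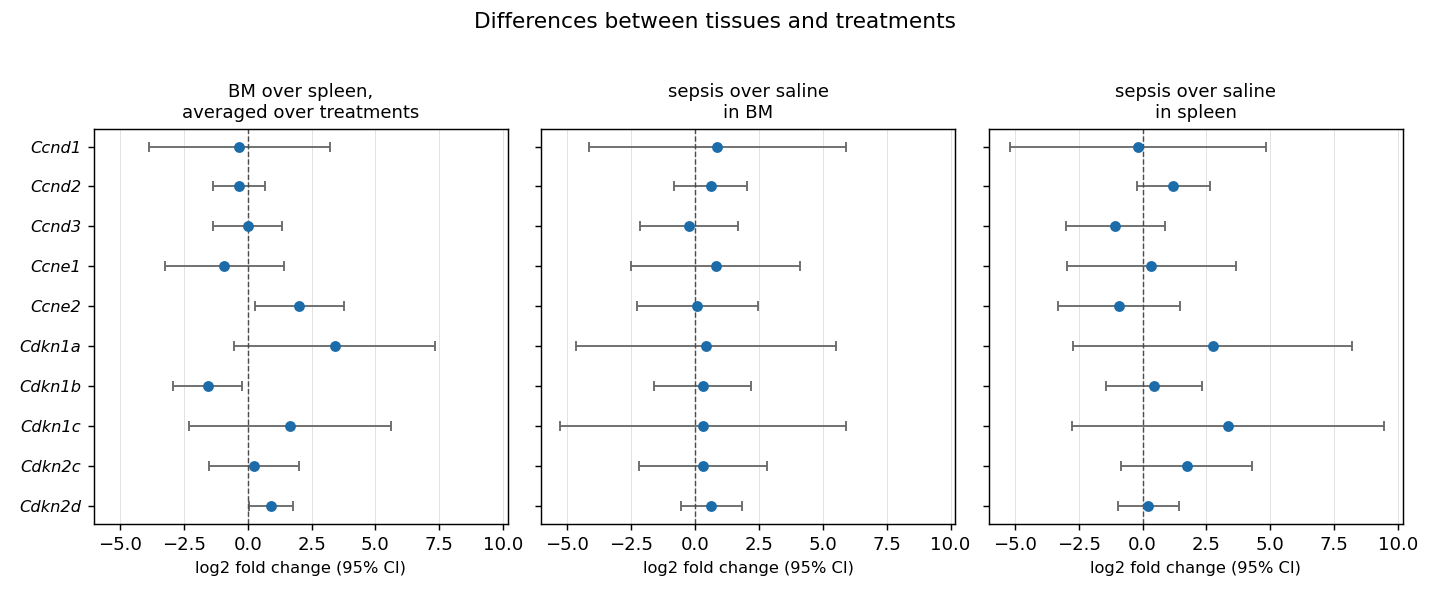
Log2 fold changes of the 10 genes (points) with 95% CIs (bars) from the edgeR fit, for BM over spleen averaged over treatments and for sepsis over saline in each tissue, with a dashed line at 0. Intervals were widest for the scarce genes Ccnd1, Cdkn1a and Cdkn1c, and none of the points passed the test after adjustment over all genes.

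The cyclins and inhibitors were set beside 44 other genes of the G1/S step and its regulation, of which 41 were tested. These other G1/S genes include 9 upstream regulators, among them Mycn, Foxo1 and Runx1. Left out by the filter were the INK4 genes Cdkn2a and Cdkn2b and the A cyclin Ccna1. Between tissues averaged over treatments, 6 of the 41 were called as higher in BM and 1 as higher in spleen, where 2.07% and 2.68% of all genes were. Upstream regulators were 2 of those higher in BM (Mycn and Runx1) and the 1 higher in spleen (Foxo1). The median log2 fold change of the 41 genes was 0.75, against -0.13 over all genes. After saline 2 were called as higher in BM, against 0.523% of all genes. After sepsis 2 were called as higher in BM, against 0.597%, and 1 as higher in spleen, against 1.18%.

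Cdk6, the kinase partner of the D cyclins, measured 241 to 377 CPM in the 6 BM libraries and 1.49 to 68.7 CPM in the 6 splenic ones, with no overlap. It was higher in BM averaged over treatments, with a log2 fold change of 3.59 ± 0.74 and an adjusted p of 0.00546 in edgeR. The other kinases of the list, Cdk2, Cdk4 and Cdk7, were not called, nor were the CDK-activating subunits Ccnh and Mnat1 or the pocket proteins Rb1, Rbl1 and Rbl2. Of the upstream regulators, the transcription factor Mycn measured 42.0 to 108 CPM in BM and 0.154 to 3.59 CPM (3 to 32 counts) in spleen, again with no overlap. Its log2 fold change was 5.77 ± 0.82 averaged over treatments, with an adjusted p of 0.000203 in edgeR, and it was called after saline (6.08) and after sepsis (5.47) as well. The call of Mycn after saline did not hold in limma-voom (adjusted p = 0.0983), nor that after sepsis in edgeR with the 6 libraries of the comparison alone (adjusted p = 0.0551).

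Foxo1, a transcription factor that is known to activate Cdkn1b, was the called gene with the opposite direction. It measured 3.68 to 26.9 CPM in the BM libraries and 39.6 to 164 CPM in the splenic ones, with no overlap. Averaged over treatments it was 9.28-fold higher in spleen, a log2 fold change of BM over spleen of -3.21 ± 0.51 with an adjusted p of 0.000540 in edgeR, and after sepsis it was called at -3.63 (adjusted p = 0.0119). The call after sepsis did not hold without BM sepsis replicate 1 (adjusted p = 0.0512) or BM sepsis replicate 3 (adjusted p = 0.0943). Foxo1 is also expressed by B cells, whose markers were higher in the same libraries, and their part in its level was not tested.

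Cks1b, a cofactor of the ubiquitin ligase that marks p27 for degradation, measured 444 to 961 CPM in BM and 30.7 to 552 CPM in spleen. It was 3.89-fold higher in BM averaged over treatments (log2 fold change 1.96 ± 0.51, adjusted p = 0.0279 in edgeR). Runx1, an MK transcription factor, was 3.25-fold higher in BM (1.70 ± 0.45, adjusted p = 0.0304). The Runx1 call did not hold in 8 of 21 alternatives, which were RLE factors and the removal of BM saline replicate 2 or 3, of BM sepsis replicate 1, 2 or 3, of spleen saline replicate 3 or of spleen sepsis replicate 2, with adjusted p values from 0.0509 to 0.0999 in edgeR. MK and platelet markers and proliferation markers summed higher in BM as well. Their part in the levels of the G1/S genes called as higher in BM was not tested.

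Among the 10 E2F and DP genes, E2f3 and Tfdp2 were called, each after 1 of the treatments and in the average. E2f3 measured 28.8, 22.5 and 29.0 CPM in BM after saline and 0.406, 1.16 and 0.966 CPM in spleen after saline, but 14.0, 34.1 and 25.6 CPM in BM and 17.0, 18.8 and 5.92 CPM in spleen after sepsis. The splenic values after saline were 3, 14 and 9 counts. BM over spleen was thus 4.96 ± 1.12 on the log2 scale after saline (adjusted p = 0.0328 in edgeR) and 0.82 ± 0.95 after sepsis (adjusted p = 0.785). Averaged over treatments it was 2.89 ± 0.72 (adjusted p = 0.0222). The call after saline did not hold in 11 of 22 alternatives, including the removal of any one of the 6 saline libraries or of BM sepsis replicate 2 or 3, with adjusted p values from 0.0508 to 0.139. The averaged call did not hold in 6 of 21, including the removal of any one of the BM saline libraries or of BM sepsis replicate 2 or 3, with adjusted p values from 0.0528 to 0.104.

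Tfdp2, which encodes the E2F partner DP2, was called after sepsis. It then measured 34.9, 30.0 and 24.4 CPM in BM and 0.257, 0.224 and 0.291 CPM in spleen, with a fitted log2 fold change of 6.80 ± 1.29 and an adjusted p of 0.00709 in edgeR. The splenic values were 5, 2 and 3 counts, and the size of a fold change fitted to such counts depends on the prior count. After saline it measured 12.7, 56.2 and 23.8 CPM in BM and 1.62, 14.3 and 8.69 CPM in spleen (1.91 ± 1.02, adjusted p = 0.425). Averaged over treatments the value was 4.35 ± 0.81 with an adjusted p of 0.00247. The interaction of tissue and sepsis for Tfdp2 was 4.89 ± 1.49 with an adjusted p of 0.543 in edgeR, and limma-voom did not call it, whereas DESeq2 did.

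**Figure D4:**
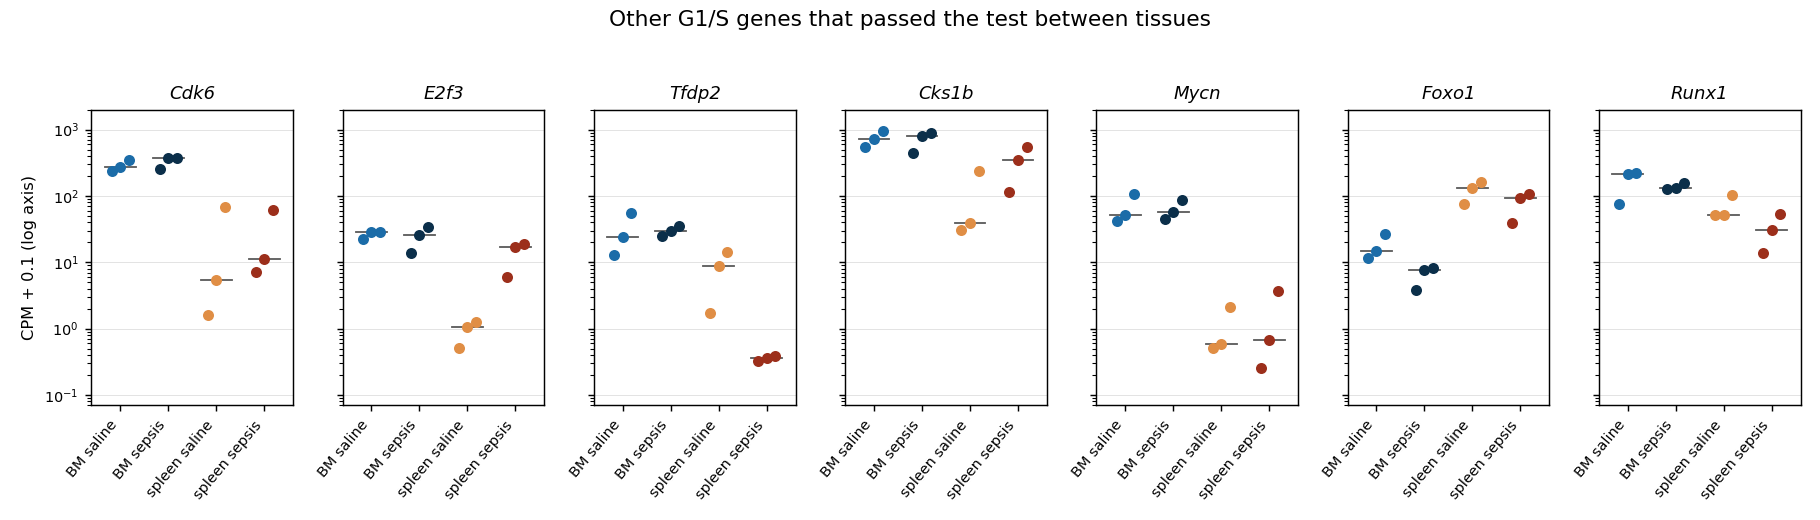
CPM plus 0.1 on a log axis for the 7 other G1/S genes that passed the edgeR test between tissues. There is 1 point per library and a line at each group's median. Mycn, Foxo1 and Runx1 are upstream regulators. Cdk6 and Mycn lay higher in all 6 BM libraries than in any splenic one, Foxo1 lay lower, and E2f3 and Tfdp2 separated after saline and after sepsis, respectively.

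With sepsis, edgeR called 0 of the 41 genes in BM, in spleen, averaged over tissues or in the interaction, with 1, 7, 3 and 4 of the 41 at an unadjusted p under 0.05, against 3.54%, 13.1%, 10.2% and 7.68% of all genes. DESeq2 called 0 in BM, 4 in spleen, 2 averaged over tissues and 2 in the interaction (E2f3 and Tfdp2 in the latter), against its shares of 1.02%, 4.87%, 3.34% and 2.44% of all genes, and limma-voom called 0 in each. The smallest p belonged to Foxo1 in BM (log2 fold change -1.45 ± 0.67, adjusted p = 1.0) and to Tfdp2 in spleen (-4.94 ± 1.19, adjusted p = 0.142) and averaged over tissues (-2.50 ± 0.75, adjusted p = 0.348).

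The genes whose log2 CPM followed those of each cyclin and inhibitor most closely over the 12 libraries were listed among 8119 genes with a mean of at least 10 CPM. The libraries share their tissue, depth and preparation, and the correlations are given as a description. Those nearest to Ccnd2 were Itpkb (Pearson r = 0.912), Clptm1 (0.907) and Puf60 (0.895), and those nearest to Ccnd3 were Ogfod3 (0.917), Chmp2a (0.908) and Trmt61b (0.901). For Cdkn1b they were Tnrc6a (0.928), Jund (0.911) and Dusp2 (0.896), and for Cdkn2d they were Sdsl (0.876), Rock2 (0.855) and Cpq (0.852).

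The genes nearest to Ccne1 were Cog2 (0.874), Arih2 (0.864) and Gusb (0.859), and those nearest to Ccne2 were Echs1 (0.882), Thoc6 (0.833) and Wbp1 (0.799). For Cdkn2c they were Lipo3 (0.889), Fam98b (0.884) and Trappc11 (0.867). Ccnd1, Cdkn1a and Cdkn1c were under 10 CPM on average and were not compared, and none of the other 7 genes was among the 3 nearest of another. Between these 7, the correlations ran from -0.57 for Ccnd3 with Cdkn1b to 0.50 for Ccnd2 with Cdkn1b, and Ccne1 with Ccne2 gave 0.22.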

How the data were processed

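The authors deposited whole-number read counts for 55536 genes in 12 libraries, made with SMART-Seq HT and Nextera XT kits and not normalized. The submitters' processing notes name STAR 2.7.2b, R 3.6.1, DESeq2 1.26 and GRCm38, and neither annotation nor counting options were given in the sources used here. All 55536 identifiers matched GENCODE M21 (GRCm38), which gave positions, lengths and overlaps.

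Counts were analyzed with edgeR 4.0.16 in R 4.3.3 (filterByExpr with a minimum count of 10, TMM factors, 1 mean for each of 4 groups, quasi-likelihood F test), with Benjamini-Hochberg adjustment over the 20263 genes tested and a threshold of 0.05. The ± after a log2 fold change is its SE. CPM use the TMM factors, and log2 CPM a prior count of 2. DESeq2 1.42.0 and limma 3.58.1 served as alternatives. A fixed limit of 3 counts served as the floor for a gene at 0. At depths of 7756762 to 27386184 counts it corresponds to 0.1053 to 0.4055 CPM. The edgeR procedure was tested on simulated data.

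The 10 genes, the lists and the tests were chosen with earlier results of these data known. Named were all 10 genes, the other G1/S genes called in any comparison or, where none was, that with the smallest p, and the 3 genes most correlated with each of the 10 whose mean was at least 10 CPM.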

Additional observations from a re-analysis of the deposited data

How the results depend on the processing

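TMM was replaced by RLE factors or by library size alone, and the filter was dropped or set to 10 counts in 6 libraries or more. Further alternatives were DESeq2, limma-voom with quality weights, the 6 libraries of a comparison alone, no immunoglobulin and T cell receptor segment genes, thinning to 7756762 counts, a replicate block, and each library left out in turn. Over all 70 pairs of gene and comparison they gave 1483 log2 fold changes, of which 94 had the other direction and 3 were called. For the 25 pairs whose alternatives are given here, 510 of 536 kept their direction and their side of the threshold. Exceptions among the counts of called genes were 1 between tissues after saline without BM saline replicate 2 (Ccne1) and 1 averaged over treatments with DESeq2 (Cdkn1b) or without that library (Ccne1), and leaving out each library in turn gave between 0 and 1. DESeq2 called 6 of the 41 other G1/S genes after saline and 8 after sepsis, against 2 and 3 in edgeR, while it called 6.47% and 7.26% of all genes against 1.25% and 1.78%, and limma-voom called 0 after saline and 4 after sepsis.

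Directions turned for the BM over spleen value averaged over treatments of Ccnd1 (0.23 with library size alone, 1.85 with limma-voom, 0.70 with the replicate block), of Ccnd2 (0.0798 with library size alone, 0.31 with limma-voom) and of Ccnd3 (-0.21 with RLE factors, -0.11 with the stricter filter, -0.21 with DESeq2). Limma-voom also turned Ccnd2 with sepsis in spleen (-0.15) and between tissues after sepsis (0.69). With 1 library left out the averaged values ran from -0.63 to 2.87 for Ccnd1, -0.48 to 0.51 for Ccnd2, -0.29 to 0.63 for Ccnd3, -1.02 to 4.46 for Cdkn1c and -0.0791 to 1.31 for Cdkn2c. For Ccne1 after saline they ran from -8.25 to 0.0649, for Ccnd2 with sepsis in spleen from -0.40 to 1.72 and for Ccnd2 between tissues after sepsis from -1.03 to 1.03. The cause of these changes was not tested. Scaling moved the median of all genes between tissues averaged over treatments from -0.13 with TMM to -0.32 with RLE and 0.38 with library size alone, and Ccne2, Cdkn1a, Cdkn1b and Cdkn2d kept their direction under each.

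Samples with the same replicate number did not deviate together (18 correlations between -0.06 and 0.04). With the replicate block, 0 of the 10 genes were called in each comparison, as without it, and 955 genes were called between tissues averaged over treatments, against 962. Spread between libraries (biological coefficient of variation 143%) and low counts of Ccnd1, Cdkn1a and Cdkn1c limited what could be detected.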
